A study of Homo sapiens with 6 samples.

Results

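Autophagy and mitophagy genes were examined in H9 cells, an established line of human embryonic stem cells, after an antisense oligonucleotide against LINE1 (L1) RNA. L1 is a family of transposable elements present in many copies in the human genome. The genes were a fixed list of 38 symbols, chosen with earlier results of these data known. The list covers each step of autophagosome formation, the receptors for mitochondria and other cargo, 2 transcription factors and 2 lysosome membrane proteins. All 38 were among the 53715 genes of the count table. All 38 also passed the filter on low counts, which left 19156 genes for testing.

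Each of the 3 groups had 2 poly(A) RNA libraries. ASO-L1 cells received the antisense oligo, sO-L1 cells the sense oligo to L1, and ASO-Ctr cells a non-targeting antisense oligo, each at 25 nM. FAM-positive cells were sorted 48 hours after transfection, so the libraries represent cells that took up the oligo. Cells of all 3 groups, controls included, also received the ROCK inhibitor Y-27632 at 10 uM, the caspase inhibitor emricasan at 5 uM and trans-ISRIB at 0.7 uM, which were removed 24 hours later. ISRIB blunts the translational arm of the integrated stress response, and all groups share that exposure. The authors' deposited data for these libraries are named as primed H9 cells. The labels name both mTeSR and RSeT as the medium, and which one these libraries had could not be settled from the labels. Libraries of a group are not stated to come from separate cultures, so p-values measure only spread between these libraries. In the main fit, that spread is what remains after the replicate number, and it is estimated in large part across genes. L1 RNA itself was not analysed here, because the count table is per gene.

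ASO-L1 libraries totalled 46223290 and 57899009 counts, sO-L1 libraries 34665403 and 60999413, and ASO-Ctr libraries 18897936 and 67192937. Replicate 1 of ASO-Ctr was therefore the shallowest library. Mitochondrial genes held 3.79% to 4.24% of the counts. All 12 markers of primed embryonic stem cells exceeded 1 CPM (counts per 1000000 gene counts of a library) in both libraries of every group. Their summed level was 9882 and 9969 CPM in ASO-L1, 10377 and 10255 CPM in sO-L1, and 10282 and 10113 CPM in ASO-Ctr. Across the 6 libraries, 8 blood markers summed to 1.0 to 1.43 CPM, 8 endoderm markers to 4.84 to 9.12 CPM, 8 trophoblast markers to 9.52 to 11.2 CPM with VGLL1 at 0, and 10 naive or 8-cell markers to 10.3 to 13.1 CPM with LEUTX and DUXA at 0. The 8 mesoderm markers summed to 103 to 131 CPM with HAND1 at 0, the 8 fibroblast markers to 379 to 412 CPM, and the 8 neural markers to 380 to 420 CPM. The part of these levels in the results was not tested. In bulk libraries, fewer cells of a type and less RNA per cell cannot be told apart.

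Autophagy encloses cytoplasm in a double membrane, the autophagosome, and delivers it to the lysosome for breakdown. The ULK kinase complex starts the process, a phosphatidylinositol 3-kinase complex marks the membrane, and the WIPI, ATG2 and ATG9 proteins extend it. A pair of ubiquitin-like conjugation reactions then attaches ATG8 proteins (LC3 and GABARAP) to the membrane, where cargo receptors bind them. Mitophagy is the removal of mitochondria by this route, either through PINK1, which labels damaged mitochondria, or through receptors in the outer mitochondrial membrane such as BNIP3, BNIP3L and FUNDC1. TFEB and TFE3 drive transcription of many lysosome and autophagy genes by binding an E-box, CACGTG. BNIP3 and BNIP3L are also known targets of the hypoxia-inducible factors, whose response element has the core ACGTG.

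Promoter letters were read from RefSeq (GRCh38.p14), whose table matched 32 of the 38 genes, with 41 promoters that run from 250 bases before to 50 bases after the start. BNIP3L, ATG4D, PINK1, LAMP2, UVRAG and RB1CC1 had no match. On either strand, CACGTG occurred in 4 of the 41 promoters (9.76%), against 1851 of 22199 protein-coding promoters (8.34%). It occurred in those of LAMP1, ATG3, ATG14 and BNIP3. The 250 bases before the start are shown for BNIP3, the gene with the smallest adjusted p in the list, and for LAMP1, whose window held the most E-boxes. Each is written 5′ to 3′ on the strand of its gene, with CACGTG in capitals.
BNIP3: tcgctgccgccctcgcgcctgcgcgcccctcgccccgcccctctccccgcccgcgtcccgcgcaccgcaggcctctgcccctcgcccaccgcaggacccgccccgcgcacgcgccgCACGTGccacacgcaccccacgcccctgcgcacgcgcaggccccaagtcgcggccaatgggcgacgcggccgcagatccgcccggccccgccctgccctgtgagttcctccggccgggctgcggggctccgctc
LAMP1: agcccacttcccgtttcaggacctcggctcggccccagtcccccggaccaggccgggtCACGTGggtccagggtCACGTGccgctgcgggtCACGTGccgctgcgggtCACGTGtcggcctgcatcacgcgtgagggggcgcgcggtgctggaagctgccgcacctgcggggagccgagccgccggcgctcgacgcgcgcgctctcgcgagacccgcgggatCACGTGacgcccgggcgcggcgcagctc
The BNIP3 stretch is chr10:131981924-131982173 on the minus strand and holds 1 E-box, whose first base lies at position -134 from the start. The LAMP1 stretch is chr13:113296989-113297238 on the plus strand and holds 5 E-boxes, with a sixth that spans the start and so is not marked. The core ACGTG, which every CACGTG also contains, occurred in 12 of the 41 promoters (29.3%), against 23% of protein-coding promoters. The C/EBP-ATF element TGATGNAA occurred in 0 of the 41, against 2.69%. These matches describe letters in one window of each gene.

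In ASO-L1 against sO-L1, the mitophagy receptors BNIP3 and BNIP3L and the conjugating enzyme ATG10 fell, and the cargo receptor SQSTM1 (p62) rose. A gene was called where edgeR's quasi-likelihood test, with group and replicate number in the design, gave a Benjamini-Hochberg adjusted p under 0.05 over all 19156 genes. Called were 12 of the 38 genes (31.6%), against 23% of all genes tested. Of these, 4 were higher (10.5%, against 10.3% of all genes) and 8 were lower (21.1%, against 12.7%). The higher genes were SQSTM1, ATG4D, ATG12 and ATG16L1, and the lower ones BNIP3, BNIP3L, ATG10, ULK1, ULK2, ATG13, WIPI2 and ATG4C. The median log2 fold change over the 38 genes was 0.02, and over all genes -0.0005. The median size of the log2 change, sign aside, was 0.109 over the 38 and 0.159 over all genes. These sets were not matched for expression level, so the sizes cannot be ranked.

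Most of those calls were small, and 9 of the 12 were under 1.5-fold. Called at 1.5-fold or more were 3 of the 38 genes, against 3.74% of all genes tested, with SQSTM1 higher (2.08% of all genes) and BNIP3 and ATG10 lower (1.67%). A design without the replicate number left 4 of the 38 genes called, against 1.84% of all genes tested. These were SQSTM1, higher (0.914% of all genes), and BNIP3, BNIP3L and ATG10, lower (0.924%). The 2 ASO-L1 libraries lay entirely above the 2 sO-L1 libraries in CPM for 9 of the 38 genes (22.4% of all genes) and entirely below for 12 (24.1% of all genes).

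In ASO-L1 against ASO-Ctr, which shares the ASO-L1 libraries with the first comparison, 14 of the 38 genes were called, against 21.5% of all genes tested. The 6 higher genes (9.88% of all genes were called higher) were SQSTM1, RB1CC1, ATG3, ATG12, ATG16L1 and LAMP1. The 8 lower genes (11.6% of all genes) were BNIP3, BNIP3L, ATG10, PINK1, ULK1, ULK2, ATG13 and WIPI2. The median log2 fold change was -0.004 over the 38 genes and -0.0024 over all genes. Of the 14, 12 were under 1.5-fold, and the 2 others were SQSTM1, higher (1.49% of all genes), and BNIP3, lower (1.96%), against 3.45% of all genes called at 1.5-fold or more in either direction. The design without the replicate number left 3 of the 38 called, against 1.95% of all genes, with SQSTM1 higher (0.903%) and BNIP3 and BNIP3L lower (1.05%). The ASO-L1 libraries lay above both ASO-Ctr libraries for 8 of the 38 (20.9% of all genes) and below both for 13 (27.6% of all genes).

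In sO-L1 against ASO-Ctr, the 2 control oligos, 0 of the 38 genes were called by edgeR, against 1.72% of all genes tested (0.658% higher and 1.06% lower). Here 4 of the 38, ATG4D, FUNDC1, ATG2B and ATG4C, had an unadjusted p under 0.05. None had such a p without the replicate number or with DESeq2, which also called 0. The log2 fold changes ran between -0.23 (GABARAP) and 0.16 (FUNDC1). Their median size was 0.0557, against 0.0963 over all genes, again not matched for expression level. The sO-L1 libraries lay above both ASO-Ctr libraries for 5 of the 38 (12.8% of all genes) and below both for 5 (16.8%), and 0% of all genes were called without the replicate number.

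**Figure D1:**
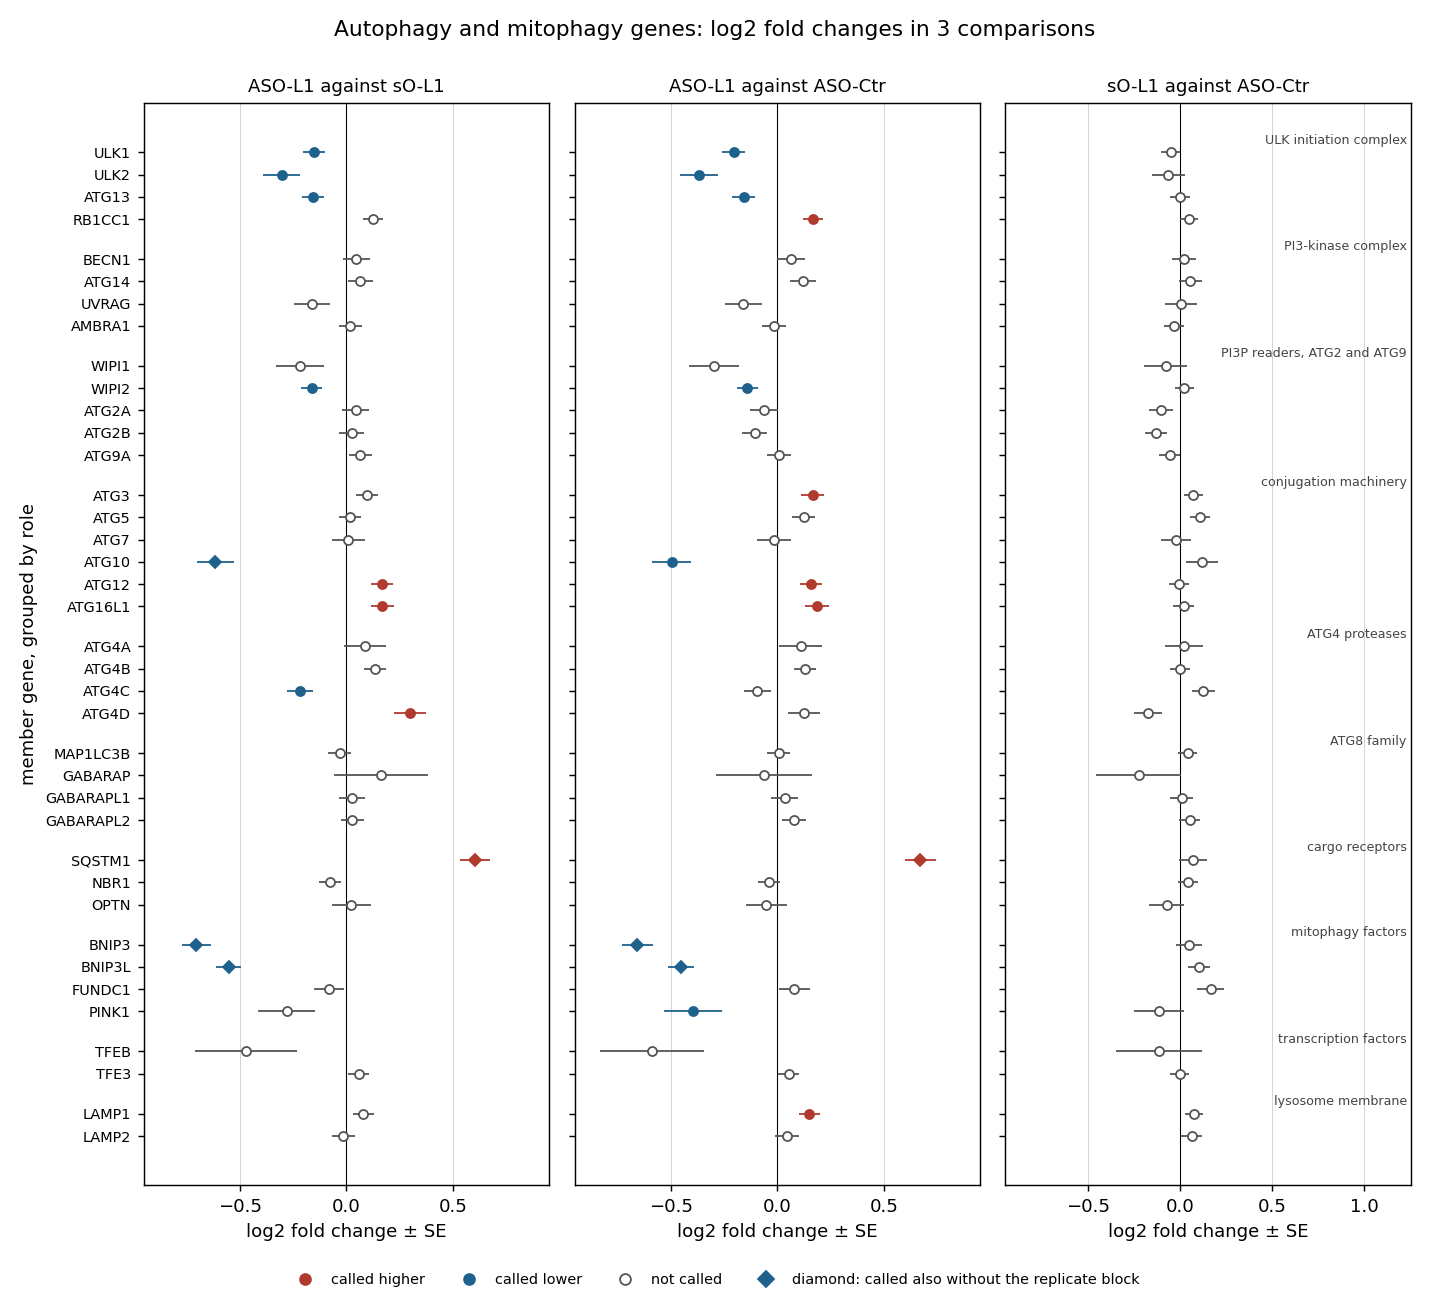
Log2 fold change with its standard error (x axis) of each of the 38 genes (rows, grouped by role) with ASO-L1 set against sO-L1 (left), then against ASO-Ctr (middle), and sO-L1 set against ASO-Ctr (right). Filled points were called at adjusted p under 0.05, and diamonds were called also without the replicate number; the third panel has no filled point.

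Among the mitophagy factors, BNIP3 showed the smallest adjusted p of the list in both ASO-L1 comparisons. This outer-membrane receptor of the BCL2 family had 16.1 and 16.6 CPM in ASO-L1, against 27.2 and 26.3 CPM in sO-L1 and 26.4 and 26.0 CPM in ASO-Ctr. The ASO-L1 libraries sat together, well below the 4 others, which overlapped one another. The log2 fold change was -0.70 ± 0.07 (SE) against sO-L1 (adjusted p = 4.3e-11, edgeR, and 0.00805 without the replicate number). Against ASO-Ctr it was -0.66 ± 0.07 (adjusted p = 6.8e-10, and 0.0119 without the replicate number).

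BNIP3L (NIX), the paralogue that clears mitochondria from maturing red cells, had 35.8 and 39.3 CPM in ASO-L1. It had 55 and 55.9 CPM in sO-L1 and 54.4 and 51.0 CPM in ASO-Ctr. Again no ASO-L1 library reached the lowest control library. The log2 fold change was -0.55 ± 0.06 against sO-L1 (adjusted p = 1.4e-10, edgeR, and 0.0153 without the replicate number) and -0.45 ± 0.06 against ASO-Ctr (5.1e-08 and 0.0306). PNMA2 and SDAD1P1 lie opposite 8.96% of its exonic length (GENCODE v29, GRCh38), and whether counting used strand is unknown.

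PINK1, the kinase that accumulates on damaged mitochondria, was a low gene with 93 to 328 counts per library. Its level was 3.22 and 3.99 CPM in ASO-L1, 4.53 and 4.38 CPM in sO-L1, and 4.92 and 4.88 CPM in ASO-Ctr. Both ASO-L1 libraries were below all 4 controls, by a margin that differed between replicates. It fell against ASO-Ctr by 0.39 ± 0.14 on the log2 scale (edgeR adjusted p = 0.032, and 0.232 without the replicate number) and was not called against sO-L1 (-0.28 ± 0.13, adjusted p = 0.13). The ASO-Ctr call was lost on leaving out any library of the 6 other than ASO-L1 replicate 2, with adjusted p from 0.0593 to 0.394. Its log2 fold change was -0.25 without ASO-L1 replicate 1 and -0.61 without ASO-L1 replicate 2. Of its exonic length, 39.4% lies opposite PINK1-AS (GENCODE v29, GRCh38), and whether counting used strand is unknown, so reads of the pair may be mixed. FUNDC1, another outer-membrane receptor, had 24.4 and 23.8 CPM in ASO-L1, 29 and 22.9 CPM in sO-L1, and 24.4 and 22 CPM in ASO-Ctr. Its groups overlapped and it was not called in any comparison.

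**Figure D2:**
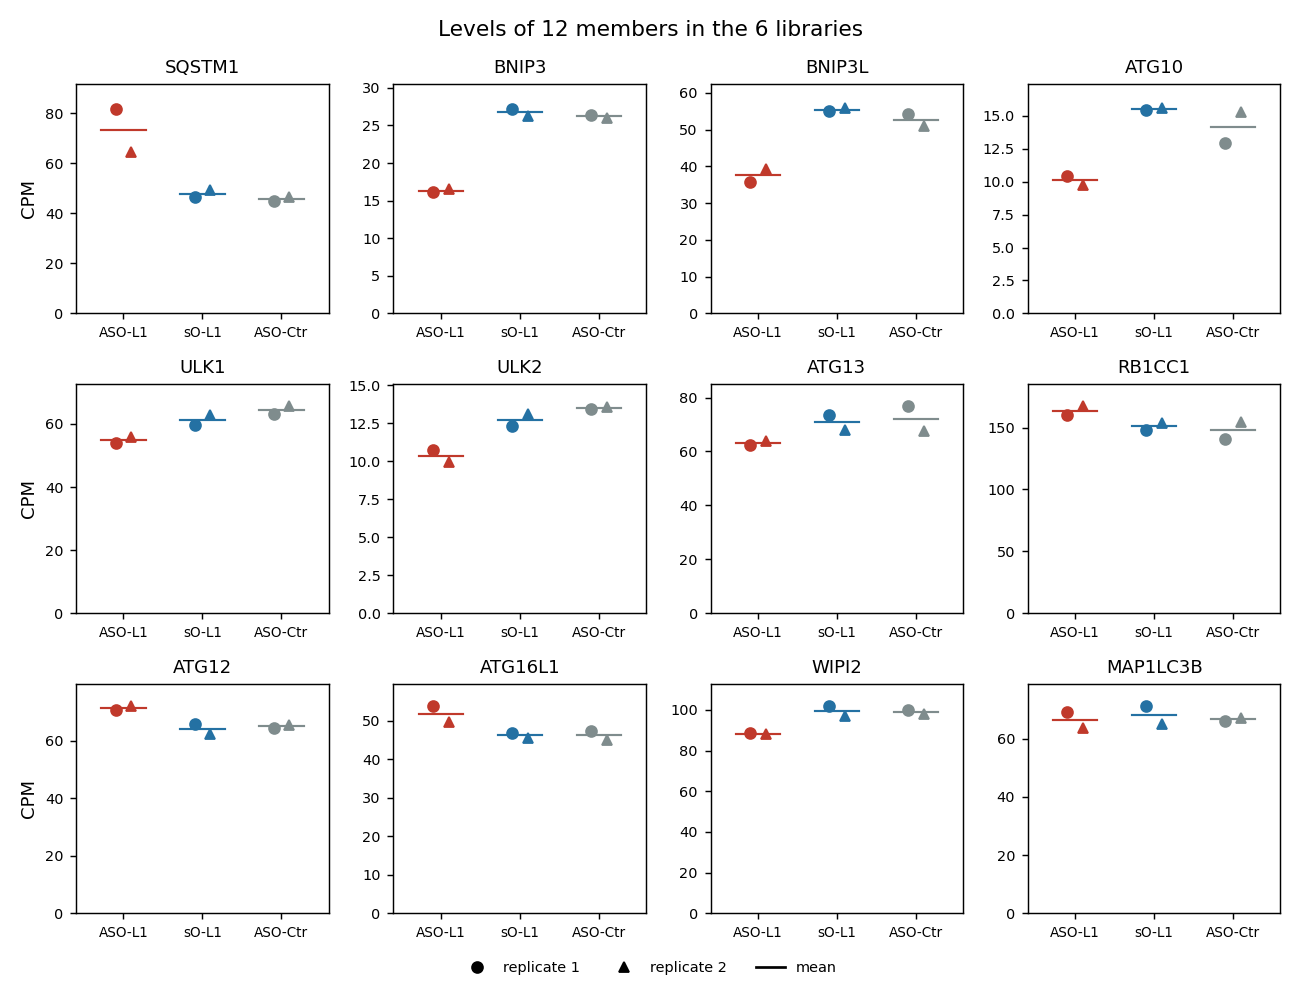
CPM (y axis, from 0) of 12 of the 38 genes in the 2 libraries of each group, with the group mean as a line. The ASO-L1 libraries lie apart from all 4 control libraries for SQSTM1, BNIP3, BNIP3L and ATG10, by less for ULK1, ULK2, ATG13, RB1CC1, ATG12, ATG16L1 and WIPI2, while the MAP1LC3B ranges overlap.

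Of the 3 listed cargo receptors, SQSTM1 rose in both ASO-L1 comparisons, where 10.3% (against sO-L1) and 9.88% (against ASO-Ctr) of all genes were called higher. SQSTM1 (p62) links ubiquitinated cargo to LC3 and is itself degraded by autophagy, and its RNA measured here is not its protein. It had 81.7 and 64.6 CPM in ASO-L1, against 46.5 and 49.2 CPM in sO-L1 and 45.1 and 46.7 CPM in ASO-Ctr. The ASO-L1 libraries were the highest of the 6 and also differed most from each other. The log2 CPM ratio to sO-L1 was 0.81 in replicate 1 and 0.39 in replicate 2, and to ASO-Ctr 0.86 and 0.47. The log2 fold change was 0.60 ± 0.07 against sO-L1 (edgeR adjusted p = 9.2e-07, and 0.029 without the replicate number) and 0.67 ± 0.07 against ASO-Ctr (2.9e-07 and 0.0205). MGAT4B and MRNIP lie opposite 22% of its exonic length. NBR1, a related ubiquitin receptor, had log2 fold changes of -0.08 ± 0.05 and -0.04 ± 0.05 in the ASO-L1 comparisons, against sO-L1 and ASO-Ctr in that order. OPTN, a receptor in PINK1-dependent mitophagy, stayed between 10.0 and 11.5 CPM in all 6 libraries. Neither was called.

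Of the 4 listed genes of the ULK initiation complex, ULK1, ULK2 and ATG13 were called lower and RB1CC1 higher in ASO-L1 against ASO-Ctr, where 11.6% of all genes were called lower and 9.88% higher. In ASO-L1 against sO-L1, ULK1, ULK2 and ATG13 were called lower (12.7% of all genes) and RB1CC1 was not called. ATG101, the remaining subunit, was counted under its older symbol C12orf44 in a further list and was not called, with log2 fold changes of 0.10 ± 0.07 against sO-L1 and 0.16 ± 0.07 against ASO-Ctr. The 2 comparisons share the ASO-L1 libraries. ULK1, the kinase that starts autophagosome formation, had 54.0 and 55.9 CPM in ASO-L1, 59.6 and 62.9 CPM in sO-L1, and 63.1 and 65.6 CPM in ASO-Ctr. ULK2, its paralogue, had 10.7 and 9.91 CPM in ASO-L1, 12.3 and 13.1 CPM in sO-L1, and 13.4 and 13.5 CPM in ASO-Ctr. For both kinases the ASO-L1 libraries were the lowest and did not overlap the controls. ULK1 fell by 0.15 ± 0.05 on the log2 scale against sO-L1 (edgeR adjusted p = 0.029) and by 0.20 ± 0.05 against ASO-Ctr (0.0034). ULK2 fell by 0.30 ± 0.09 against sO-L1 (adjusted p = 0.0083) and by 0.37 ± 0.09 against ASO-Ctr (0.0018). Neither was called without the replicate number (adjusted p 0.127 to 0.32 over both kinases and both comparisons).

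ATG13, the adaptor that binds the kinases, had 62.6 and 63.7 CPM in ASO-L1, 73.7 and 68.1 CPM in sO-L1, and 76.7 and 67.7 CPM in ASO-Ctr. Its control libraries were spread more widely than the ASO-L1 libraries. It fell by 0.16 ± 0.05 in each ASO-L1 comparison (edgeR adjusted p = 0.027 against sO-L1 and 0.03 against ASO-Ctr, and 0.431 and 0.412 without the replicate number). RB1CC1 (FIP200), the scaffold of the complex, had 160 and 167 CPM in ASO-L1, 148 and 154 CPM in sO-L1, and 141 and 154 CPM in ASO-Ctr. It rose by 0.17 ± 0.05 against ASO-Ctr (adjusted p = 0.0075, and 0.257 without the replicate number) and had 0.12 ± 0.05 against sO-L1 (0.052). Several of these calls were lost when a library was left out. ULK1 against sO-L1 was lost on leaving out any of the 4 libraries compared, while its log2 fold change stayed between -0.155 and -0.147. ULK2 against sO-L1 was lost without replicate 2 of ASO-L1 (0.204) or of sO-L1 (0.271), and against ASO-Ctr without ASO-L1 replicate 2 (0.11). The ATG13 value itself moved with single libraries. It was -0.07 in both comparisons without ASO-L1 replicate 1, where the call was lost (0.664 and 0.632), and -0.26 in both without ASO-L1 replicate 2. Against ASO-Ctr it was -0.09 without ASO-Ctr replicate 1 and -0.24 without replicate 2. The ATG13 call was also lost against sO-L1 without either sO-L1 library (0.308 and 0.11), and against ASO-Ctr without ASO-Ctr replicate 1 (0.438) or either sO-L1 library (0.0504 and 0.0543). RB1CC1 was lost without either ASO-L1 library (0.0681 and 0.0513) or without ASO-Ctr replicate 1 (0.167).

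Of the conjugation machinery, ATG10 was called lower against sO-L1 (12.7% of all genes were) and against ASO-Ctr (11.6%). ATG12 and ATG16L1 were called slightly higher in both, and ATG3 against ASO-Ctr. Of all genes, 10.3% were called higher against sO-L1 and 9.88% against ASO-Ctr. ATG10, the E2-like enzyme that joins ATG12 to ATG5, had 10.4 and 9.76 CPM in ASO-L1, 15.5 and 15.6 CPM in sO-L1, and 13 and 15.3 CPM in ASO-Ctr. RPS23 lies opposite 6.86% of the ATG10 exonic length, and whether counting used strand is unknown. For ATG10, both ASO-L1 libraries were lower than every control library. Against sO-L1 its log2 fold change was -0.61 ± 0.09 (edgeR adjusted p = 3.1e-07, and 0.0301 without the replicate number). Against ASO-Ctr it was -0.49 ± 0.09 (3.8e-05), and that call was lost without the replicate number (0.0707) and without ASO-Ctr replicate 2 (0.0874, log2 fold change -0.32).

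ATG12, the ubiquitin-like protein that ATG10 handles, had 70.7 and 72.1 CPM in ASO-L1, 65.9 and 62.2 CPM in sO-L1, and 64.6 and 65.3 CPM in ASO-Ctr. ATG16L1, which anchors the ATG12-ATG5 conjugate to the membrane, had 53.8 and 49.7 CPM in ASO-L1, 46.8 and 45.6 CPM in sO-L1, and 47.4 and 45.0 CPM in ASO-Ctr. In both genes the ASO-L1 libraries were the highest, by a few CPM. ATG12 rose by 0.17 ± 0.05 on the log2 scale against sO-L1 (edgeR adjusted p = 0.015) and by 0.16 ± 0.05 against ASO-Ctr (0.025). ATG16L1 rose by 0.17 ± 0.05 against sO-L1 (adjusted p = 0.019) and by 0.19 ± 0.06 against ASO-Ctr (0.011). ATG3, the E2-like enzyme that lipidates ATG8 proteins, rose by 0.17 ± 0.05 against ASO-Ctr (0.018), although its ranges overlapped, with 66.3 and 59.2 CPM in ASO-L1 and 59.6 and 54.0 CPM in ASO-Ctr. Against sO-L1, where it had 61.4 and 56.5 CPM, ATG3 was not called (0.10 ± 0.05). None of these 5 calls was made without the replicate number (adjusted p 0.301 to 0.434). Leaving out single libraries ended each of them as well. The ATG16L1 call against sO-L1 was lost on leaving out any of the 4 libraries compared, with log2 fold changes of 0.15 to 0.19. The ATG3 call against ASO-Ctr was lost likewise, with log2 fold changes of 0.16 to 0.17. ATG12 was lost against sO-L1 without replicate 2 of ASO-L1 (0.241) or of sO-L1 (0.4, log2 fold change 0.10). Against ASO-Ctr, ATG12 was lost without ASO-L1 replicate 2 (0.324) or either ASO-Ctr library (0.174 and 0.0878), and ATG16L1 without ASO-L1 replicate 1 (0.108) or either ASO-Ctr library (0.0638 and 0.109). ATG5 and ATG7, the partner of ATG12 and the E1-like enzyme of both reactions, were not called anywhere. ATG5 had 73.6 and 70.7 CPM in ASO-L1, 76.6 and 67.1 CPM in sO-L1, and 68.9 and 65.4 CPM in ASO-Ctr, and ATG7 stayed between 14.7 and 17.3 CPM.

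**Figure D3:**
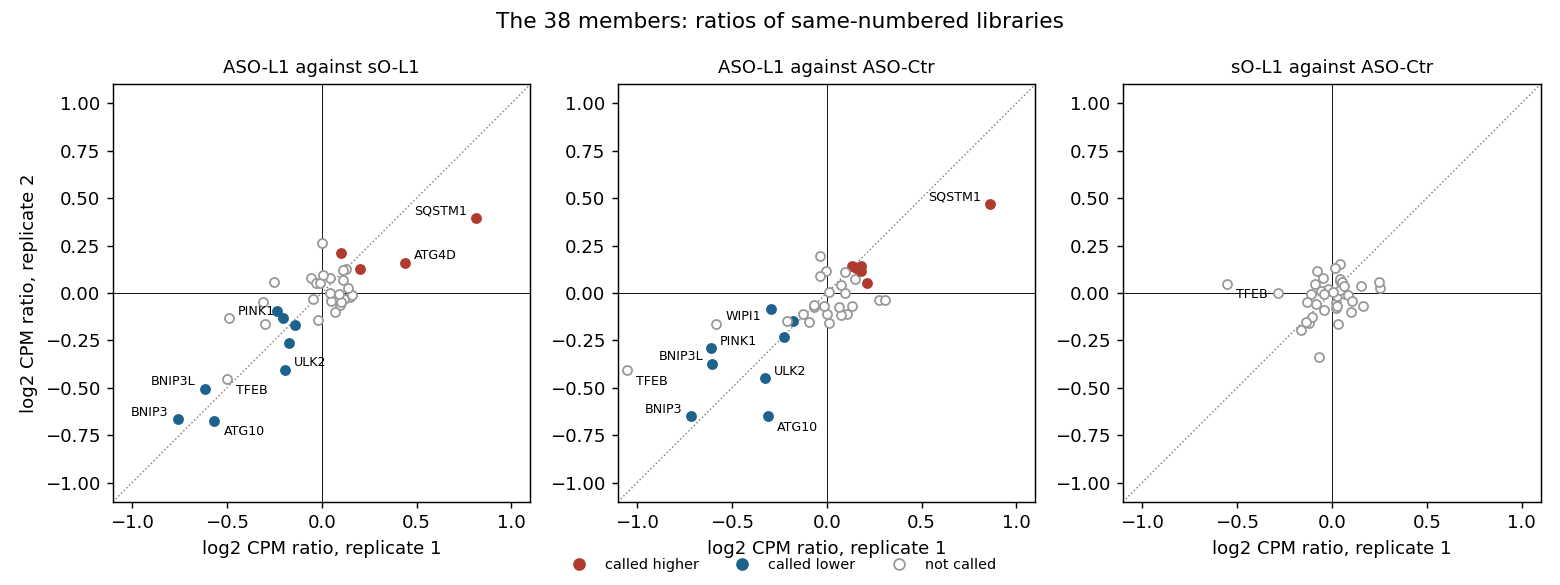
Log2 ratio of CPM between libraries with replicate number 1 (x axis) and number 2 (y axis) for the 38 genes in the 3 comparisons, with the line of equality dotted. BNIP3, BNIP3L and ATG10 lie low on both axes and SQSTM1 high on both in the ASO-L1 panels; TFEB, at 28 to 97 counts per library, lies off the line in ASO-L1 against ASO-Ctr.

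The ATG4 proteases trim ATG8 proteins before lipidation and release them afterwards. In ASO-L1 against sO-L1, ATG4D of the 4 was called higher (10.3% of all genes were) and ATG4C lower (12.7%), and ATG4A and ATG4B were not called. ATG4D had 25.2 and 21.1 CPM in ASO-L1, against 18.6 and 18.9 CPM in sO-L1, a log2 fold change of 0.30 ± 0.07 (edgeR adjusted p = 0.0019). ATG4C had 32.6 and 32.9 CPM in ASO-L1, against 36.8 and 39.5 CPM in sO-L1, a log2 fold change of -0.22 ± 0.06 (0.005). Against ASO-Ctr, with 20.8 and 21.7 CPM for ATG4D and 35.6 in both libraries for ATG4C, the log2 fold changes were 0.12 ± 0.08 and -0.09 ± 0.06 and neither was called. ATG4D in ASO-L1 thus overlapped ASO-Ctr. The 2 controls also differed, in the direction opposite to the ASO-L1 changes. In sO-L1 against ASO-Ctr the log2 fold change was -0.18 ± 0.08 for ATG4D and 0.12 ± 0.06 for ATG4C. Their unadjusted edgeR p was 0.028 and 0.046, and neither was called there. Part of each difference from sO-L1 thus lay between the control oligos. Without the replicate number the sO-L1 calls were lost (0.186 for ATG4D, 0.204 for ATG4C). They were also lost for ATG4D without replicate 1 of ASO-L1 (0.285, with a log2 fold change of 0.17) or of sO-L1 (0.149), and for ATG4C without replicate 2 of ASO-L1 (0.0604) or of sO-L1 (0.19). ATG4B, the protease with the broadest activity, had 0.13 ± 0.05 in each ASO-L1 comparison (0.052 against sO-L1 and 0.068 against ASO-Ctr) and ATG4A 0.09 ± 0.10 against sO-L1 and 0.11 ± 0.10 against ASO-Ctr.

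None of the 4 listed ATG8 genes, which encode the tags of the autophagosome membrane, was called in any comparison. Of all genes tested, 23% were called in ASO-L1 against sO-L1, 21.5% in ASO-L1 against ASO-Ctr and 1.72% in sO-L1 against ASO-Ctr. MAP1LC3B, which encodes LC3B, had 69.2 and 63.6 CPM in ASO-L1, 71.4 and 65.0 CPM in sO-L1, and 66.3 and 67.0 CPM in ASO-Ctr. The ranges of its 3 groups overlapped in part, with 1 ASO-L1 library the lowest of the 6. GABARAPL1 and GABARAPL2 had log2 fold changes of 0.03 ± 0.06 and 0.03 ± 0.05 against sO-L1, and 0.03 ± 0.06 and 0.08 ± 0.06 against ASO-Ctr. GABARAP had only 24 to 99 counts per library, at 1.16 to 1.47 CPM, and a standard error of 0.22 in both ASO-L1 comparisons, so its depth limits what could be detected. Of its exonic length 30.5% is shared with AC120057.2 on the same strand and 25.2% lies opposite AC120057.3, so its counts are uncertain.

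None of BECN1, ATG14, UVRAG and AMBRA1, the 4 listed genes of the PI3-kinase complex, was called in any comparison. Of all genes, 23% were called in ASO-L1 against sO-L1, 21.5% in ASO-L1 against ASO-Ctr and 1.72% in sO-L1 against ASO-Ctr. The catalytic subunit PIK3C3 and the scaffold PIK3R4 belong to a further list, and PIK3R4 was called lower there. BECN1 (Beclin 1), its core subunit, stayed between 27.6 and 29.6 CPM in all 6 libraries. ATG14, which directs the complex to autophagy, had 0.07 ± 0.06 against sO-L1 and 0.12 ± 0.06 against ASO-Ctr on the log2 scale. UVRAG, the subunit of the endosomal form of the complex, had 12.5 and 14.2 CPM in ASO-L1, 15.5 and 14.6 CPM in sO-L1, and 14.5 and 15.7 CPM in ASO-Ctr. Both of its ASO-L1 libraries lay below all controls, and its log2 fold change was -0.16 ± 0.08 against sO-L1 and -0.16 ± 0.09 against ASO-Ctr (adjusted p = 0.17 and 0.2). AMBRA1, a regulator of the complex, had 0.02 ± 0.05 against sO-L1 and -0.02 ± 0.06 against ASO-Ctr.

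Of the WIPI, ATG2 and ATG9 genes, only WIPI2 was called, lower against sO-L1 (12.7% of all genes were) and against ASO-Ctr (11.6%). WIPI2 binds the phosphatidylinositol 3-phosphate mark and recruits ATG16L1. It had 88.5 and 88.2 CPM in ASO-L1, 102 and 96.8 CPM in sO-L1, and 100 and 97.8 CPM in ASO-Ctr, with no overlap between ASO-L1 and the controls. It fell by 0.16 ± 0.05 on the log2 scale against sO-L1 (edgeR adjusted p = 0.012, and 0.303 without the replicate number) and by 0.14 ± 0.05 against ASO-Ctr (0.037 and 0.384). Against sO-L1 the call was lost without replicate 1 of ASO-L1 (0.237) or of sO-L1 (0.243), and against ASO-Ctr without any of the 4 libraries compared (0.0597 to 0.353). WIPI1, a related lipid reader, had 5.30 and 6.37 CPM in ASO-L1, 6.52 and 7.13 CPM in sO-L1, and 7.94 and 7.13 CPM in ASO-Ctr, and was not called (-0.22 ± 0.11, adjusted p = 0.17, and -0.30 ± 0.12, adjusted p = 0.061). The lipid-transfer proteins ATG2A and ATG2B and the scramblase ATG9A had log2 fold changes of 0.03 to 0.07 against sO-L1 and of -0.11 to 0.01 against ASO-Ctr. For ATG9A, 38.8% of the exonic length is shared on the same strand with AC068946.2.

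Neither transcription factor was called in any comparison, while 23% of all genes were called in ASO-L1 against sO-L1 and 21.5% in ASO-L1 against ASO-Ctr. TFEB, a master regulator of lysosome genes, was the lowest gene of the list per kilobase of exon, at 0.160, 0.221 and 0.259 CPM per kb (group means in ASO-L1, sO-L1 and ASO-Ctr). It had 0.714 and 1.09 CPM in ASO-L1, 1.01 and 1.49 CPM in sO-L1, and 1.48 and 1.44 CPM in ASO-Ctr. The ASO-L1 libraries overlapped sO-L1 and lay below ASO-Ctr. Its log2 fold changes, -0.47 ± 0.24 (adjusted p = 0.16) and -0.59 ± 0.25 (0.082), carry the widest errors of the list. TFE3, its relative, was well measured, between 93.4 and 102 CPM, with 0.06 ± 0.05 against sO-L1 and 0.05 ± 0.05 against ASO-Ctr.

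LAMP1, a main glycoprotein of the lysosome membrane and the gene whose 5 marked E-boxes are shown above, was the highest of the list per kilobase of exon, at 36.0, 34.2 and 32.9 CPM per kb (group means in the same order). It had 215 and 198 CPM in ASO-L1, 193 and 199 CPM in sO-L1, and 186 and 191 CPM in ASO-Ctr. The ASO-L1 libraries overlapped sO-L1 but lay above ASO-Ctr. LAMP1 rose by 0.15 ± 0.05 on the log2 scale against ASO-Ctr (edgeR adjusted p = 0.019), a call lost without the replicate number (0.325), without ASO-L1 replicate 1 (0.499, log2 fold change 0.08) and without ASO-Ctr replicate 1 (0.278). Against sO-L1 it had 0.08 ± 0.05. LAMP2, needed for fusion of autophagosome and lysosome, had -0.01 ± 0.05 against sO-L1 and 0.05 ± 0.06 against ASO-Ctr.

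Beyond the 38 genes, 4 further lists of the pathway were counted. They were chosen with earlier results of these data known, and no test was run on a list. Of all genes tested, 10.3% were called higher and 12.7% lower in ASO-L1 against sO-L1, and 9.88% higher and 11.6% lower against ASO-Ctr. Other autophagy machinery (33 genes tested) had 1 gene higher (3.03%, against 10.3% of all genes) and 5 lower (15.2%, against 12.7%) in ASO-L1 against sO-L1. Against ASO-Ctr it had 1 higher (3.03%, against 9.88%) and 6 lower (18.2%, against 11.6%). EI24, an endoplasmic reticulum protein required for autophagy, rose by 0.27 ± 0.05 on the log2 scale in each. The kinase-complex scaffold PIK3R4 fell by 0.23 ± 0.05 against sO-L1 and 0.22 ± 0.05 against ASO-Ctr, and STX17, the fusion protein of the autophagosome, by 0.31 ± 0.08 and 0.35 ± 0.08. ATG16L2 and SH3GLB1 were also lower against sO-L1, and ZFYVE1 and EPG5 against ASO-Ctr. Without the replicate number 0 genes of this list were called, with 6 and 5 at an unadjusted p under 0.05.

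Other receptors and mitophagy factors (24 genes) had 2 higher and 2 lower against sO-L1 (8.33% each, against 10.3% and 12.7% of all genes). Against ASO-Ctr they had 3 higher (12.5%, against 9.88%) and 4 lower (16.7%, against 11.6%). TEX264, a receptor for autophagy of the endoplasmic reticulum, had 6.08 and 6.15 CPM in ASO-L1, 10.9 and 10.5 CPM in sO-L1, and 10.9 and 11.1 CPM in ASO-Ctr. Its ASO-L1 libraries stood well below all controls, with log2 fold changes of -0.80 ± 0.10 against sO-L1 (edgeR adjusted p = 1.3e-08, and 0.0129 without the replicate number) and -0.83 ± 0.10 against ASO-Ctr (1.2e-08 and 0.0133). CALCOCO2 (NDP52), a receptor for ubiquitinated cargo, rose by 0.29 ± 0.06 against sO-L1 and 0.32 ± 0.07 against ASO-Ctr, and the deubiquitinase USP15 by 0.17 ± 0.05 and 0.28 ± 0.05. TAX1BP1, a further receptor, was higher against ASO-Ctr. RTN3 was lower in both, and WDFY3 and TOLLIP against ASO-Ctr. TEX264 was the 1 call of the list in each comparison without the replicate number. In sO-L1 against ASO-Ctr, SEC62 was called higher and WDFY3 lower, and neither was without the replicate number.

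The nutrient and stress control genes (35 tested) had 9 higher (25.7%, against 10.3% of all genes) and 5 lower (14.3%, against 12.7%) relative to sO-L1. Relative to ASO-Ctr they had 9 higher (25.7%, against 9.88%) and 4 lower (11.4%, against 11.6%). DDIT4 (REDD1), a stress-induced inhibitor of mTORC1, had 19.1 and 13.8 CPM in ASO-L1, 7.88 and 6.28 CPM in sO-L1, and 7.57 and 7.32 CPM in ASO-Ctr. SESN2, a leucine sensor that restrains mTORC1, had 61.8 and 53.3 CPM in ASO-L1, 33.0 and 35.2 CPM in sO-L1, and 35.3 and 37.1 CPM in ASO-Ctr. Both ASO-L1 libraries exceeded all controls for each gene. DDIT4 rose by 1.21 ± 0.09 against sO-L1 (edgeR adjusted p = 3.6e-14, and 0.0153 without the replicate number) and 1.1 ± 0.10 against ASO-Ctr (1.7e-12 and 0.0193). SESN2 rose by 0.75 ± 0.06 (8.4e-14 and 0.00805) and 0.67 ± 0.06 (5e-12 and 0.013). TRIB3, a stress-induced pseudokinase named here after its values were seen, rose by 1.35 ± 0.22 against sO-L1 (0.023 and 0.012) and 1.30 ± 0.23 against ASO-Ctr (0.03 and 0.0133). DDIT4, SESN2 and TRIB3 were the calls of this list without the replicate number in each comparison. FLCN and LAMTOR4 were also higher in both, and PRKAG1, LAMTOR5 and RRAGA lower in both. In sO-L1 against ASO-Ctr, SESN3 was called lower, and was not without the replicate number.

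Lysosome genes (47 tested) had 5 higher (10.6%, against 10.3% of all genes) and 9 lower (19.1%, against 12.7%) relative to sO-L1. Relative to ASO-Ctr they had 4 higher (8.51%, against 9.88%) and 6 lower (12.8%, against 11.6%), so 3 of these 4 shares lay near those over all genes. The receptor SCARB2 fell by 0.39 ± 0.05 against sO-L1 and 0.38 ± 0.05 against ASO-Ctr, the mannosidase MANBA by 0.43 ± 0.06 and 0.47 ± 0.06, and the lipase LIPA by 0.33 ± 0.06 in each. The proton pump subunit ATP6V1C1 rose by 0.22 ± 0.05 and 0.27 ± 0.05. Without the replicate number 0 lysosome genes were called, with 9 and 6 at an unadjusted p under 0.05. The median log2 fold changes of the 4 lists, in the order described, were -0.03, -0.04, 0.03 and -0.03 against sO-L1, and -0.004, 0.02, 0.05 and -0.02 against ASO-Ctr.

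**Figure D4:**
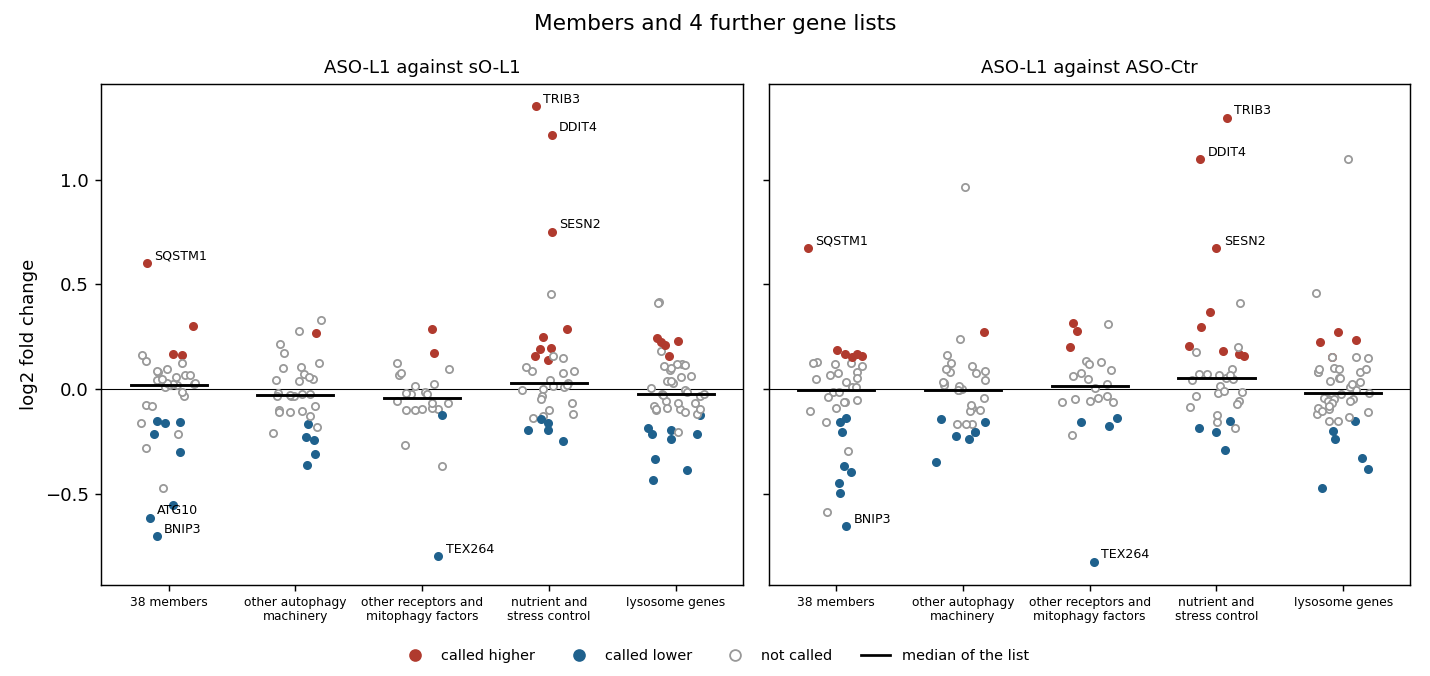
Log2 fold change (y axis) of each gene tested among the 38 and the 4 further lists, in ASO-L1 against sO-L1 and against ASO-Ctr, with called genes filled and the list median as a bar. The medians lie close to zero, with SQSTM1, DDIT4, SESN2 and TRIB3 high and BNIP3 and TEX264 low.

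The authors' deposited table of ASO-L1 minus sO-L1 held all 38 genes among 16753. At its adjusted p under 0.05, the authors' deposited table had 6 of the 38 higher and 8 lower, against 11.2% and 11.9% of its genes. The call was the same as in the fit described here for 36 of the 38. The 2 others, ATG4B and RB1CC1, had adjusted p of 0.0407 and 0.0303 in the authors' deposited table. Both sets of calls rest on the same libraries, so the match is not independent evidence.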

How the data were processed

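Poly(A) RNA of 6 libraries in 3 groups was counted. The submitters' processing notes name Trim Galore 0.4.0, TopHat2 2.0.13, featureCounts, Subread 1.5.0 and the build hg19. The strand setting is not given in the sources used here. The authors deposited raw counts per gene symbol and a table of log2 normalized, batch-corrected values. They also deposited a comparison table of log2 fold changes and p-values, whose test is not stated. Per the file headers, that deposited table also holds 2 score columns of moderated statistics, not used here.

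Of 53807 entries, 92 spike-ins were left out. Genes passing filterByExpr (minimum count 10, minimum total 15) had TMM factors of 0.983 to 1.02 and entered edgeR 4.0.16 (R 4.3.3): robust quasi-likelihood test, all 6 libraries, group and replicate number in the design, Benjamini-Hochberg adjustment over 19156 genes. This left 2 residual degrees of freedom, with a median prior of 44.8. The biological coefficient of variation was 0.0354, and 0.0834 without the replicate number. CPM is the count per 1000000 gene counts of a library. SE was taken as the size of the log2 fold change divided by the root of the F statistic.

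The labels do not say that a replicate number marks a shared batch, so the pairing is not established. The differences between replicates 1 and 2 correlated at 0.567 (ASO-L1 and sO-L1), 0.459 (ASO-L1 and ASO-Ctr) and 0.537 (sO-L1 and ASO-Ctr) across 15515 genes, which are not independent replicates. The authors' deposited log2 table is labelled batch-corrected, without naming the batch. In it the means of the 2 replicate numbers were equal within 0.02 for 82.6% of genes, against 10.3% in log2 CPM.

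Members and lists were chosen with earlier results of these data known. All 38 members are named, and of each further list up to 4 called genes per direction with the smallest p. TRIB3, ATG101 and PIK3C3 were named outside this rule, after their values were seen. Gene structure came from GENCODE v29 (GRCh38), used for lengths and overlaps only. Alternatives were DESeq2 1.42.0 and its size factors, upper-quartile scaling, limma-voom (limma 3.58.1), other filters, no replicate number, the 4 libraries compared, each library left out, a fold of at least 1.5 and adjusted p under 0.1. The main fit was also run on simulated counts with a replicate effect shared by all groups and a coefficient of variation of 0.0354. In ASO-L1 against sO-L1 it recovered 65% of genes changed 1.5-fold and 80% of those changed 2-fold. The simulation assumes the pairing, so it cannot show whether the replicate number belongs in the design.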

Additional observations from a re-analysis of the deposited data

How the results depend on the processing

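In ASO-L1 against sO-L1, the 4 higher and 8 lower genes became 2 and 5 with DESeq2, 1 and 3 in the fit without the replicate block, and 1 and 2 at a fold of at least 1.5, and ranged over 2 to 5 and 4 to 8 with 1 library left out. In ASO-L1 against ASO-Ctr, the 6 higher and 8 lower genes became 3 and 5 with DESeq2, 1 and 2 without the replicate block, and 1 and 1 at a fold of at least 1.5, with 5 lower when no filter was used, and ranged over 2 to 6 and 5 to 7 with 1 library left out. Against sO-L1 the higher count was 6 with upper-quartile scaling, with a CPM filter, in the 4 libraries compared, or at adjusted p under 0.1. It was 5 with limma-voom or no filter. RB1CC1 was called in all of these, and ATG4B in those with 6. Over all genes, 4440 of 19156 were called with upper-quartile scaling, 4474 of 16205 with the CPM filter and 4723 of 18615 in the 4 libraries. In sO-L1 against ASO-Ctr the counts were 0 and 0 under every alternative. Calls over all genes also fell with the settings that lowered the counts. In ASO-L1 against sO-L1, 4412 of 19156 genes became 2355 with DESeq2, 352 without the replicate block and 717 at a fold of at least 1.5. In ASO-L1 against ASO-Ctr, 4120 of 19156 became 2436, 374 and 661 in the same order, and 3817 of 35175 with no filter. They also fell on leaving out any library of the groups compared. Where 1 library remained in a group, its spread was taken from the others. The 26 called results were refitted under 14 settings, 364 values in all, of which 276 kept the call, 88 lost it and 0 changed sign. SQSTM1, BNIP3 and BNIP3L in both ASO-L1 comparisons, and ATG10 against sO-L1, kept it under all 14. Depth limited GABARAP and TFEB, at under 100 counts in every library.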

Other observations

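Gene length was set beside the changes, as a description. By the GENCODE v29 annotation, the span from first to last base had a median of 37.8 kb over the 38 genes and 29.7 kb over 15434 genes tested that matched by name. At 100 kb or longer were 7 of the 38 and 3046 of the 15434. In ASO-L1 against sO-L1, 2 of these 7 were called lower and 0 higher, beside 721 and 289 of the 3046. Against ASO-Ctr, 2 of the 7 were called lower and 1 higher, beside 859 and 155 of the 3046. The lower genes were BNIP3L (123 kb) and ATG10 (305 kb) in each, and the higher one was RB1CC1 (123 kb). The part of length in these calls was not tested. Across genes, which are not independent and share the same libraries, Spearman's rho between span and log2 fold change in ASO-L1 against sO-L1 was -0.34 over the 38 genes and -0.15 over all. In ASO-L1 against ASO-Ctr it was -0.17 over the 38 and -0.20 over all, and in sO-L1 against ASO-Ctr 0.24 and -0.12.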
